A study of Rattus norvegicus with 65 samples.

Results

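The hypothalamus of diet-induced obese rats was compared between Roux-en-Y gastric bypass (RYGB) and sham operation in batch B, 1 of the 2 periods over which the study was run. The comparison holds 9 of the 65 libraries of the series, chosen by their labels as all RYGB and all sham libraries of batch B, and every gene of the table was in view. RYGB replicates 12, 13 and 14 make up 1 group of 3 and sham replicates 6 to 11 the other group of 6, each library labelled as its own replicate. All 9 were male Wistar rats, 9 to 10 weeks old at the start, which became obese on 6 weeks of high-fat food, were operated on, then chose freely between high-fat and low-fat food. Whole hypothalami were taken 4 weeks after the operation following a 10 h fast, so 1 library mixes all cells of the block, no transgene or cell sort was involved, and findings are limited to males and to 1 time point. The operation and its effects on feeding and body weight cannot be told apart in this comparison. Both operations were done under isoflurane and butorphanol, with carprofen in the days after.

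In RYGB surgery the stomach is reduced to a small pouch joined to the middle of the small intestine, and body weight falls lastingly. The hypothalamus reads hormones of energy supply, among them leptin from fat and insulin from the pancreas, through receptors on arcuate neurons. Neurons making Agrp and Npy drive feeding, neurons making Pomc and Cartpt restrain it, and the Mc4r and Mc3r receptors receive their signals. Astrocytes around these neurons take up potassium, glutamate and GABA and pass on fuel.

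Library totals differed between the groups. RYGB libraries held 25378724 to 26975216 counts and sham libraries 20040821 to 22967376, without overlap (exact permutation test over all 84 arrangements, two-sided, p = 0.0119, the smallest these groups allow; 0.0153 after adjustment over 9 library measures). Genes with at least 1 count numbered 23900 to 24250 in RYGB and 22086 to 23537 in sham libraries. Counts were also distributed differently, in that genes with summed exons under 1000 bases took 7.35 to 8.13% of RYGB counts and 8.76 to 11.1% of sham counts. These 3 differences all had p = 0.0119 in the same exact test.

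Hypothalamic tissue was checked against cell type and region markers, and several libraries stood apart. Neuron, astrocyte, oligodendrocyte, microglia and endothelium markers were detected in all 9 libraries, and the arcuate peptide gene Pomc had 2399, 2743 and 6086 normalized counts in the RYGB libraries, from lowest to highest, and 96.8 to 3987 with a median of 743 in the sham libraries. Sham replicates 6 and 10 had summed striatal marker counts of 173676 and 193884, against 20468 to 44166 in the other 7 libraries. Hcrtr1, an orexin receptor, stood at 17.4 and 26.3 normalized counts in sham replicates 6 and 10 and at 90.2 to 327 in the other 7. Summed counts of the list of hypothalamic nucleus transcription factors went the other way. They were 19676 and 18590 in sham replicates 6 and 10 and 9659 to 14294 in the other 7. Sham replicate 11 had a summed meningeal marker count of 39051, where the others had 4727 to 11908. RYGB replicates 13 and 14 had 2949 and 13867 counts of anterior pituitary markers, and the others 213 to 782. Whether the dissected blocks differed in extent was not tested. In bulk tissue, fewer cells of a type and less RNA per cell cannot be told apart.

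**Figure D1:**
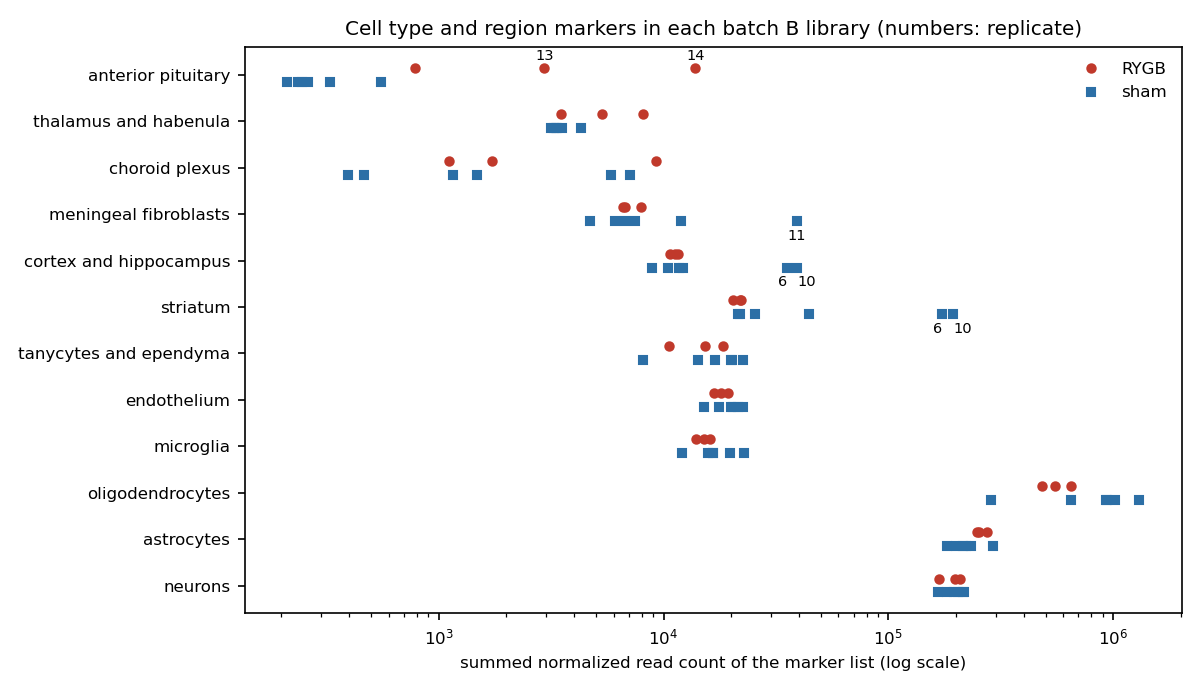
Summed normalized read counts of 12 marker lists (rows) in each library on a log axis, with RYGB libraries as circles and sham libraries as squares; numbers give the replicate. Sham replicates 6 and 10 lie far above the rest for striatal and cortical markers, sham replicate 11 for meningeal markers, and RYGB replicates 13 and 14 for anterior pituitary markers.

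Of 19279 genes tested with edgeR, 386 were upregulated and 17 downregulated in RYGB- vs. sham-treated animals at an adjusted p under 0.05 and a log2 fold change beyond 1 either way, which is 2.0% and 0.0882% of the genes tested. Without the fold threshold 753 genes were higher and 627 lower (3.91% and 3.25%). The median log2 fold change of the 753 higher genes was 1.02, and that of the 627 lower genes was -0.57. Past the fold threshold, it was 1.44 for the 386 upregulated and -1.35 for the 17 downregulated genes. Normalized counts of the groups did not overlap for 1599 higher genes (8.29%) and 1760 lower genes (9.13%), whether or not they passed. Among genes that passed, the groups did not overlap for 377 of the 386 upregulated and 619 of the 627 lower genes. DESeq2 without shrinkage called 558 upregulated and 143 downregulated genes. The count depended on single libraries. The 403 regulated genes became 14 when RYGB replicate 12 was left out, 1 when RYGB replicate 13 was and 275 when RYGB replicate 14 was. Dropping sham replicate 8 left 267 genes and dropping sham replicate 11 left 210, while dropping sham replicate 7 raised the number to 647. Of 76 genes named here that passed the test, 8 still passed when RYGB replicate 12 was dropped, 1 when RYGB replicate 13 was, 50 when RYGB replicate 14 was and 76 when sham replicate 7 was, the direction staying in all 76 each time. Without the striatum-rich sham replicates 6 and 10, 390 genes were upregulated and 24 downregulated.

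Kcnj10, Slc6a11 and Abat, which handle potassium and GABA around neurons, were upregulated after RYGB. Kcnj10, the inwardly rectifying potassium channel Kir4.1 of astrocytes, had the smallest p of all genes; it lies at chr13:90722945-90753338 of the Rnor_6.0 build. RYGB replicates 12, 13 and 14 had 1781, 1994 and 1446 normalized counts of Kcnj10 and the sham libraries 359 to 556 with a median of 509. Every RYGB value lay well above every sham value (3.62-fold; log2 fold change 1.85, SE 0.14, adjusted p = 0.00299). Lack of overlap was a condition of a rule by which Kcnj10 was named. Slc6a11 (chr4:146106386-146223228), the GABA transporter GAT-3 of astrocytes, had 5847, 6663 and 4558 normalized counts after RYGB and 401 to 2146 with a median of 845 after sham operation. Sham replicate 7, with the sham maximum, came nearest to the RYGB range, and sham replicates 6 and 10 had the lowest values (5.65-fold; log2 fold change 2.50, SE 0.49, adjusted p = 0.0214). Abat, the transaminase that breaks down GABA, had 7000.2, 8020.5 and 5496 against 2359.7 to 4191 with a median of 2689 normalized counts, again without overlap (log2 fold change 1.28, SE 0.18, adjusted p = 0.0116).

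Astrocyte markers pointed upward without passing the test. None of 13 markers passed the test, but all 13 had a positive log2 fold change, from 0.016 to 0.73 with a median of 0.31, with Slc1a2, the main glutamate transporter, at 0.73 (adjusted p = 0.0844) and Slc1a3 at 0.39 (adjusted p = 0.0891). Their summed counts were 248618 to 273239 in the RYGB libraries and 182874 to 290652 in the sham libraries, which overlap. The part of astrocyte number in the increases of Kcnj10 and Slc6a11 was not tested.

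**Figure D2:**
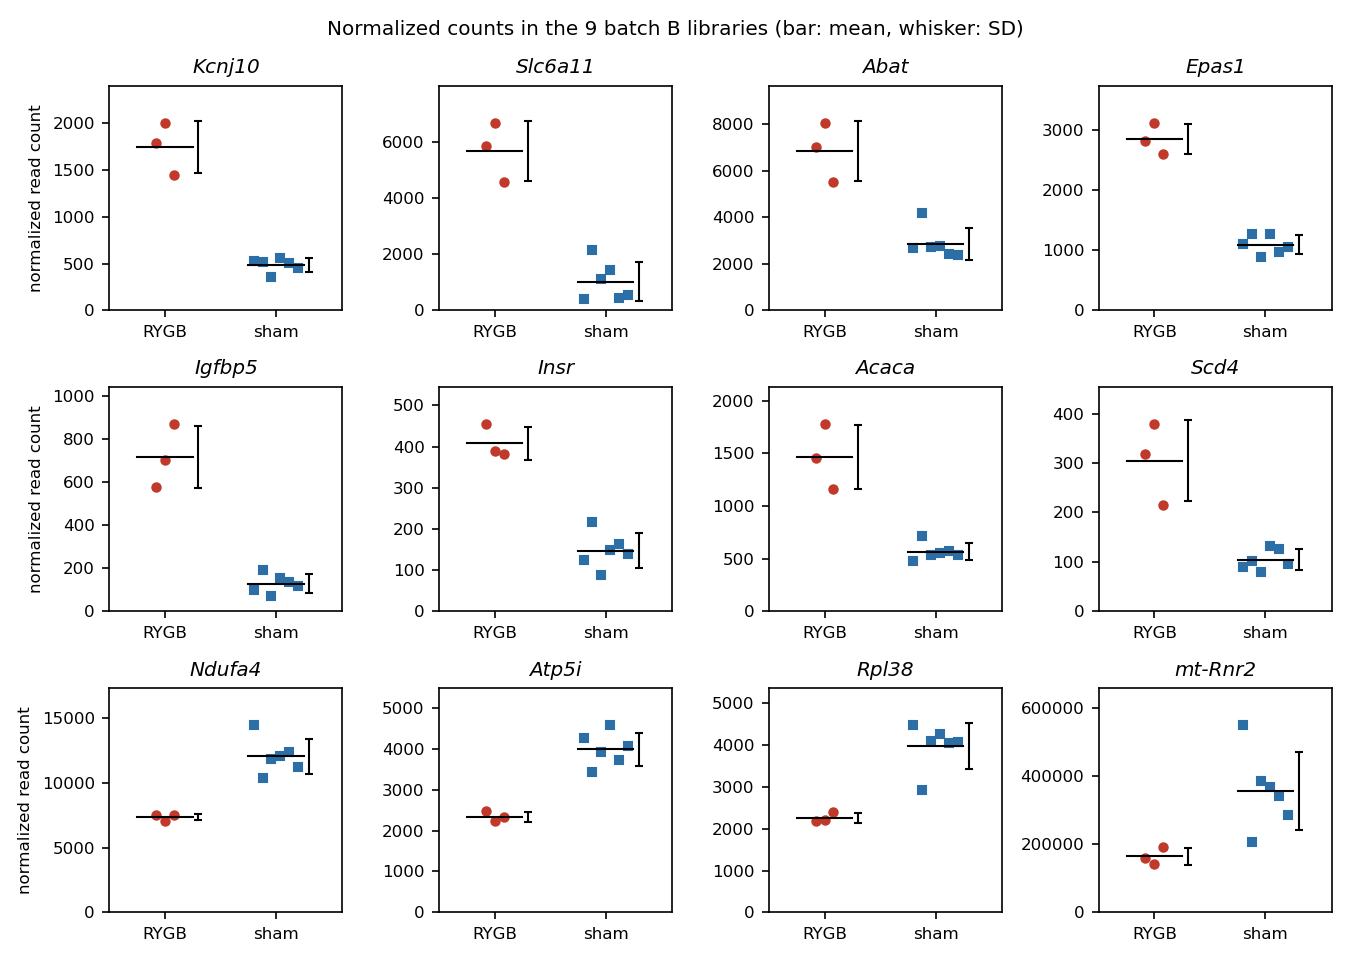
Normalized read counts (y axis, from 0) of 12 genes in each RYGB library (circles) and sham library (squares) of batch B, with the mean as a bar and the SD as a whisker. The 12 genes shown, 8 higher and 4 lower after RYGB, passed the test and do not overlap between the groups, which was a condition for naming some of them.

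Further genes with the smallest p were Epas1, Lrrc58, Axl, Kif1b, Rasa3, Ankrd52, Pcdh1 and Zyg11b. Epas1 (chr6:10306508-10385239), the oxygen-regulated transcription factor HIF-2 alpha, had 2824, 3108 and 2606 normalized counts after RYGB and 889 to 1269 with a median of 1079 after sham operation (log2 fold change 1.40, SE 0.12, adjusted p = 0.00411). Axl, a receptor tyrosine kinase that binds Gas6, differed by a steady amount, with 887, 909 and 863 against 350.3 to 483 with a median of 427 (log2 fold change 1.09, SE 0.12, adjusted p = 0.00697). Lrrc58 had the highest fold of these 8, with 361, 468 and 346 normalized counts against 62.5 to 115 with a median of 95.8 (log2 fold change 2.12, SE 0.22, adjusted p = 0.00697). That the groups did not overlap was a condition for naming these 8. Rasa3, which switches off small GTPases, had a log2 fold change of 1.03, Pcdh1, a protocadherin, 1.55, Zyg11b, a ubiquitin ligase adaptor, 1.51 and Ankrd52, a subunit of protein phosphatase 6, 1.94.

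Among the most abundant upregulated transcripts were those of the motor proteins Kif1a and Kif1b, which carry synaptic vesicle precursors and mitochondria along axons. Kif1a had 13938, 17022 and 9569 normalized counts in RYGB replicates 12, 13 and 14 and 4023 to 6116 with a median of 5539 in sham libraries (log2 fold change 1.38, SE 0.19, adjusted p = 0.0111). Kif1b had 5916, 7625 and 4623 against 1724 to 2592 with a median of 2114 (log2 fold change 1.55, SE 0.17, adjusted p = 0.00697). RYGB replicate 14 was the lowest of the RYGB libraries for both, still above every sham library. Spock2, a proteoglycan of the extracellular matrix, had 12246, 15526 and 9146 against 4033 to 7990.3 with a median of 4778 (log2 fold change 1.27, SE 0.22, adjusted p = 0.0164). Pnmal2 had 10701, 11359 and 9222 against 3633 to 9132 with a median of 4033, where sham replicate 7 nearly reached RYGB replicate 14 and the adjusted p was 0.0405.

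Genes of insulin signaling rose in part. Of 36 genes of the insulin and PI3K-Akt list, 8 passed the test, all higher, which is 22.2% beside 3.91% of all genes tested, and the list's median log2 fold change was 0.23 beside -0.01 over all genes. Insr (chr12:1682527-1816414), the insulin receptor, had 454, 389 and 382 normalized counts after RYGB and 87.7 to 217 with a median of 145 after sham operation (2.79-fold; log2 fold change 1.48, SE 0.23, adjusted p = 0.0141). Irs1, the docking protein the receptor phosphorylates, had 167, 174 and 88.9 against 20.6 to 61.4 with a median of 35.2 (log2 fold change 1.85, SE 0.36, adjusted p = 0.0208). Both rose, as did Foxo3, a transcription factor that insulin signaling keeps out of the nucleus, with 239, 278 and 207 against 63.2 to 109.8 with a median of 85.6 (log2 fold change 1.54, SE 0.20, adjusted p = 0.011). Igfbp5, which binds insulin-like growth factors, had the largest fold of the list, with 581, 702 and 869.5 normalized counts against 69.7 to 194 with a median of 128 (5.6-fold; log2 fold change 2.49, SE 0.27, adjusted p = 0.00697). All 8 calls were lost without RYGB replicate 13, while 1 member passed without RYGB replicate 12 and 5 without RYGB replicate 14. With the exon length offset 5 members passed and the list median was 0.10, the median exon length of the list being 5376.5 bases.

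The leptin receptor and JAK-STAT list had 4 of 29 members higher, 13.8% beside 3.91% of all genes tested, and none lower. Leaving out either RYGB replicate 12 or RYGB replicate 13 left 0 of the 4, and 2 members passed without RYGB replicate 14. Lifr, the receptor of leukemia inhibitory factor, had 325, 348 and 211 normalized counts after RYGB and 63.9 to 153 with a median of 92.6 after sham operation (log2 fold change 1.56, SE 0.28, adjusted p = 0.0171). Stat5b, a transcription factor of this route, had 737, 837 and 725 against 249.9 to 568 with a median of 293, with sham replicate 7 far above the other sham libraries (log2 fold change 1.23, SE 0.24, adjusted p = 0.0199). Pias1, an inhibitor of activated STAT proteins, rose as well (log2 fold change 1.36, SE 0.23, adjusted p = 0.0163), so the members that passed include both a transmitter and a brake of the route. Il6st, the shared signaling chain gp130, rose by a small amount from a sham range of 3249 to 3909 with a median of 3631 to 4631, 4244 and 5048 normalized counts (log2 fold change 0.36, SE 0.09, adjusted p = 0.039). Lepr itself, the leptin receptor, did not pass, as given below.

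Genes of fatty acid and cholesterol synthesis rose in part as well. The list had 8 of 31 members higher, 25.8% beside 3.91% of all genes tested, none lower, and a median log2 fold change of 0.39. Acaca, the acetyl-CoA carboxylase that makes malonyl-CoA, had 1461, 1775 and 1165 normalized counts after RYGB and 479.5 to 715 with a median of 547 after sham operation (log2 fold change 1.39, SE 0.15, adjusted p = 0.00697). The desaturase Scd4 had 319, 378 and 216 against 78.7 to 133 with a median of 99.1 (log2 fold change 1.56, SE 0.22, adjusted p = 0.0116), and the desaturase Fads2 rose too (log2 fold change 1.18, SE 0.22, adjusted p = 0.0176). In this list 1 member passed without RYGB replicate 12, 0 without RYGB replicate 13, 4 without RYGB replicate 14 and 5 with the exon length offset. Acaca was the single gene of 17 to pass in the list of AMPK and energy sensing, in which it stands as a target of the kinase, and that list's median was 0.02. Cpt1a, the carrier step of fatty acid oxidation, had 1563, 1490.2 and 1427 against 890.0 to 1318 with a median of 1108 normalized counts and an adjusted p of 0.0534. In glycolysis and the citric acid cycle 1 of 32 genes passed, namely Ogdh, the 2-oxoglutarate dehydrogenase (log2 fold change 0.60, SE 0.11, adjusted p = 0.0166).

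Ion channel genes passed in the upward direction alone. Potassium channels had 11 of 87 members higher, sodium and calcium channels 3 of 38, and GABA and glutamate receptors 5 of 42, which is 12.6%, 7.89% and 11.9% beside 3.91% of all genes tested, with median log2 fold changes of 0.31, 0.15 and 0.25. Hcn2 and Hcn4 form the current that paces firing. Hcn2 had 3332, 3991 and 2379 normalized counts after RYGB and 1081 to 1969.7 with a median of 1413 after sham operation (log2 fold change 1.20, SE 0.20, adjusted p = 0.0149), and Hcn4 had 190.0, 235 and 113 against 19.3 to 67.3 with a median of 27.4 (log2 fold change 2.35, SE 0.41, adjusted p = 0.0166). RYGB replicate 14 was lowest of its group for both. Kcnk9, a leak channel that sets the resting potential, had 634, 698 and 312 against 51.2 to 250.3 with a median of 107 (log2 fold change 2.22, SE 0.44, adjusted p = 0.0219), the sham maximum being in replicate 7. Among sodium and calcium channels, Scn8a (1.09, adjusted p = 0.0256), Cacna1a (0.49, adjusted p = 0.034) and Cacng4 (1.14, adjusted p = 0.0392) rose. The glutamate receptors Grin3a, Grm8 and Grid1 rose by 1.72, 0.97 and 0.79 on the log2 scale. Among all genes whose exon lengths lay within each list's middle range, 4.62%, 5.76% and 5.05% were higher. With an offset in the fit for exon length, 5, 1 and 1 members were higher. Leaving out either RYGB replicate 12 or RYGB replicate 13 left 1 potassium channel and 0 members of both other lists, which also had 0 when sham replicate 8 or sham replicate 11 was dropped. Without RYGB replicate 14 the 3 lists had 8, 2 and 1 members higher. In batch A, the other period, the median log2 fold change of the potassium channel list was -0.03, and those of Hcn2, Hcn4 and Kcnk9 were -0.32, 0.20 and 0.38.

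Other signaling and surface genes that rose were fewer. Chrnb2, a subunit of nicotinic acetylcholine receptors, had 895, 1303 and 673 normalized counts after RYGB and 216 to 459 with a median of 247 after sham operation (log2 fold change 1.81, SE 0.26, adjusted p = 0.0119), and was the single one of 10 tested subunits to pass. Ntrk2, the receptor of brain-derived neurotrophic factor, had 20072, 18103 and 20133 against 10137 to 15057 with a median of 12401 (log2 fold change 0.65, SE 0.13, adjusted p = 0.0204). In the extracellular matrix list, the perineuronal net genes Tnr, Ncan and Bcan rose by 1.79, 0.79 and 0.58 on the log2 scale, 3 of 32 members. The clock genes Bhlhe40 (0.79, adjusted p = 0.0177) and Rorb (0.84, adjusted p = 0.0355) rose, 2 of 22 tested, too few to set against 3.91% of all genes. In the inflammation list 1 of 26 passed, near that share, namely Nfkb1 (0.44, adjusted p = 0.022).

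In lists of oxidative phosphorylation and of the ribosome, many members were lower after RYGB, beside 3.25% of all genes tested. Respiratory complex I had 21 of 37 members lower, complexes II to IV 15 of 24 and ATP synthase 10 of 15, with none higher, log2 fold changes from -0.83 to 0.31 over the 3 lists and medians of -0.41, -0.54 and -0.39 on the log2 scale. Ndufa4 had 7482, 7064 and 7477 normalized counts in RYGB replicates 12, 13 and 14 and 10376 to 14405 with a median of 11921 in the sham libraries (0.616 of the sham level; log2 fold change -0.70, SE 0.11, adjusted p = 0.0141). Ndufb3, an accessory subunit of complex I, had 1796, 1713 and 1557 against 2378 to 2964 with a median of 2738 (log2 fold change -0.67, SE 0.09, adjusted p = 0.0111). The RYGB libraries lay close together for both, below every sham library. In complex III, Uqcrb had 2584, 2547 and 2738 against 3582 to 4166 with a median of 4003 (log2 fold change -0.58, SE 0.08, adjusted p = 0.0111), and Uqcrh fell by 0.55 on the log2 scale (adjusted p = 0.0166). In ATP synthase, Atp5i had 2468, 2223 and 2326 against 3433 to 4569 with a median of 3985 (0.591 of the sham level; log2 fold change -0.76, SE 0.10, adjusted p = 0.011), and Atp5l fell by 0.67 (adjusted p = 0.0141).

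Cytosolic ribosomal proteins had 58 of 84 members lower and none higher, with a median log2 fold change of -0.60. Rpl38, of the large subunit, had 2172, 2205 and 2397 normalized counts after RYGB and 2915 to 4464 with a median of 4078 after sham operation, the sham minimum being in replicate 7 (log2 fold change -0.80, SE 0.13, adjusted p = 0.0147). Rps25, of the small subunit, had 2885, 2981 and 3368 against 4058 to 6318 with a median of 5273 (log2 fold change -0.79, SE 0.14, adjusted p = 0.0164). Mitochondrial ribosomal proteins had 29 of 76 lower (median -0.36), among them Mrps16 (log2 fold change -0.81, SE 0.12, adjusted p = 0.0141). In the spliceosome list 13 of 45 were lower and 1 higher, with Snrpg at -0.77 (adjusted p = 0.016), and in the proteasome list 5 of 37 were lower, with Psmb10 at -0.94 (adjusted p = 0.0248). Gas5, a noncoding host of small nucleolar RNAs, had 985, 919 and 1176 against 1312 to 2091 with a median of 1768 (log2 fold change -0.75, SE 0.15, adjusted p = 0.0204). Ribosomal protein genes have many near-identical copies in the genome, and the authors split reads between matching positions, so single values of these genes are uncertain. No member of the 5 oxidative and ribosomal lists passed without RYGB replicate 12 or without RYGB replicate 13, although the list medians stayed between -0.58 and -0.35 in these fits. Without RYGB replicate 14, 22 cytosolic and 5 mitochondrial ribosomal members were lower, as were 9 of complex I, 4 of complexes II to IV and 3 of ATP synthase.

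**Figure D3:**
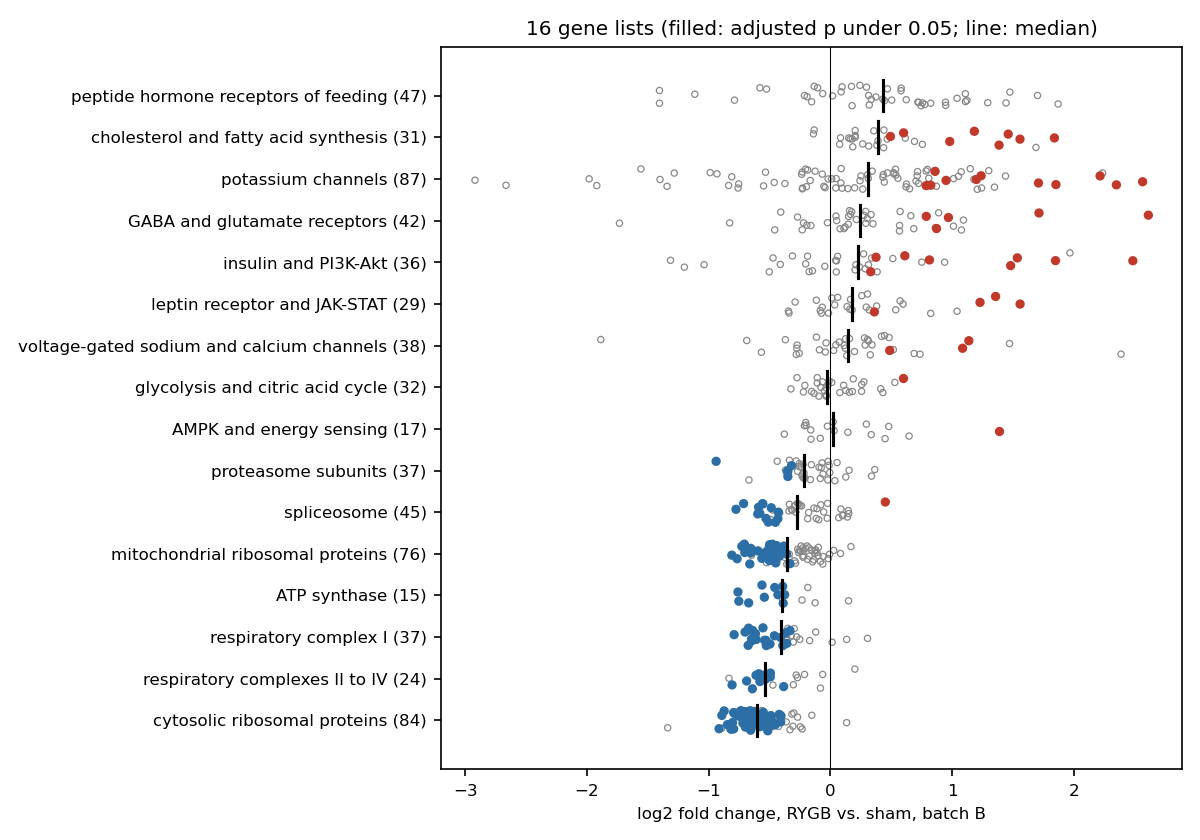
Log2 fold changes (x axis) of the tested members of 16 gene lists, 1 point a gene, with the number tested in brackets; filled points passed the test (red higher, blue lower after RYGB) and black lines are medians. The 5 oxidative and ribosomal lists lie left of 0 with medians of -0.36 to -0.60, and the channel, receptor and lipid lists spread widely around medians of 0.15 to 0.43.

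The lower genes were mostly short. Protein-coding genes with summed exons under 1000 bases had a median log2 fold change of -0.38, and 23.9% of these 1165 genes were lower and 1.63% higher. Genes of 8000 bases or more had a median of 0.14, with 0.0767% lower and 7.13% higher, and the classes between were ordered by length. Of 475 lower protein-coding genes, 422 had exons under 2000 bases, beside 136 of 715 higher ones. Of all 16226 protein-coding genes tested, 1165 had exons under 1000 bases and 3621 had exons from 1000 to under 2000 bases. The median exon length of the cytosolic ribosomal list was 618 bases and of the complex I list 683, beside 2733 over all tested genes. Protein-coding genes within the middle length range of each list were also lower, with median log2 fold changes of -0.39 and -0.33, and 24.4% and 18.4% of them passed as lower, against 69% and 56.8% of the lists. When the smooth trend over exon length was removed from each library, 65 genes in place of 627 were lower, no cytosolic ribosomal and no complex I member passed, and the list medians moved to -0.20 and -0.11. In that fit 360 genes in place of 753 were higher, with Kcnj10, Slc6a11, Abat, Epas1, Insr and Acaca still past the threshold. Of the 76 named genes that passed, 41 did so in that fit. Those that did not include most named respiratory and ribosomal genes, mt-Rnr1 and mt-Rnr2 (adjusted p = 0.111 and 0.0826), Sdhd (0.108), Glra3 (0.0599), Pnmal2 (0.0694), RT1-M1-2 (0.0549), Ttc32 (0.0769), Fam72a (0.17), Ntrk2 (0.113) and Il6st (0.285). The same order by length, from -0.17 to 0.12, was seen in batch A. Why length and direction moved together was not tested.

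**Figure D4:**
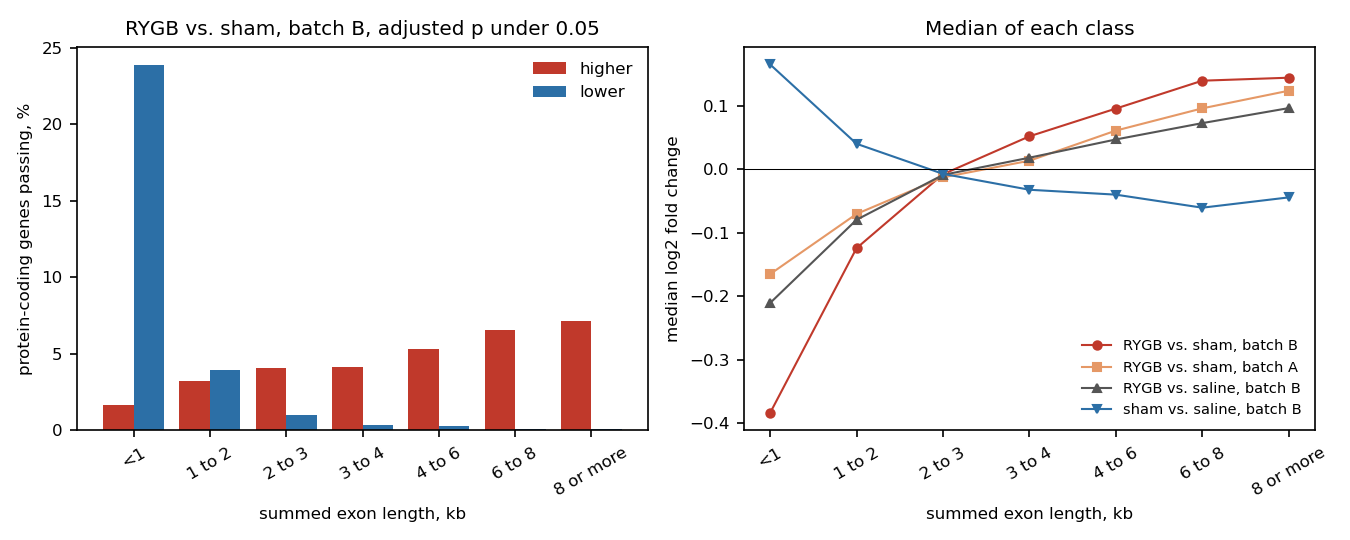
Protein-coding genes in 7 classes of summed exon length (x axis, kb): at left the percentage passing as higher (red) or lower (blue) after RYGB in batch B, at right the median log2 fold change of each class in 4 comparisons, of which those with a shared group are not independent. The shortest class had a median of -0.38 and the longest 0.14 in RYGB vs. sham of batch B, and the curve of sham vs. saline runs the other way, from 0.16 to -0.04.

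Promoters of 1 gene from each of 4 lists with many lower members, of 1 gene of the lipid synthesis list and of Kcnj10 are shown because members of these lists moved in 1 direction. Each sequence is the 250 bases before the annotated start in RefSeq (GRCr8 build, which differs from the build of the counts), read 5′ to 3′ on the gene's strand. Capitals mark 4 motifs searched on both strands: CCGGAAG (ETS core), CGCATGCG (NRF1 core), TGACGTCA (cAMP response element) and TCACNCCAC (core of the sterol response element).
Rpl38, chr10:100200185-100200434, plus strand: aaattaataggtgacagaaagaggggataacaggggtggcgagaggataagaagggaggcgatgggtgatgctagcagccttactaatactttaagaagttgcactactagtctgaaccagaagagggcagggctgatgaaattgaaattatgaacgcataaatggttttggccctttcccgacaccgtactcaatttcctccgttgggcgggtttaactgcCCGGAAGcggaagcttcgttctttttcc
Ndufb3, chr9:67623167-67623416, plus strand: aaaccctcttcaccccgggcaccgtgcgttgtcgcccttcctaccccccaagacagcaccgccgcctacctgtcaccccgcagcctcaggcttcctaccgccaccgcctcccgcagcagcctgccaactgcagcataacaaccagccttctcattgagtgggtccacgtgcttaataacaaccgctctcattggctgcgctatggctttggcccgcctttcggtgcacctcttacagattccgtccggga
Uqcrh, chr5:134790883-134791132, minus strand: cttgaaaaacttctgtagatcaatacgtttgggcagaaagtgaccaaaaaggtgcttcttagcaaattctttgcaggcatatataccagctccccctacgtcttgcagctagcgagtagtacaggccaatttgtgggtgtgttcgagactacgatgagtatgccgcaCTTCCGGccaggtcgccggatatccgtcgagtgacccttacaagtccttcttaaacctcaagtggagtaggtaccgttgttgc
Atp5i, chr14:1464610-1464859, plus strand: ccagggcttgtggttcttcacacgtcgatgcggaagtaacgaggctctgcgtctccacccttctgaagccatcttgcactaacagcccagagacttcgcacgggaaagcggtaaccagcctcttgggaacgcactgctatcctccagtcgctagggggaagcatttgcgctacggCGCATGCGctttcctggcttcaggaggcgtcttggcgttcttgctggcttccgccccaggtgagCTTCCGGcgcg
Scd4, chr1:253152269-253152518, plus strand: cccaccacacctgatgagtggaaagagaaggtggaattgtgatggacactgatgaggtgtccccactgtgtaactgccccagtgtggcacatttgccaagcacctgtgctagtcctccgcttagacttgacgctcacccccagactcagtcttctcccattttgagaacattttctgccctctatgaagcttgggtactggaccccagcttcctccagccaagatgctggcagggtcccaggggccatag
Kcnj10, chr13:87334260-87334509, plus strand: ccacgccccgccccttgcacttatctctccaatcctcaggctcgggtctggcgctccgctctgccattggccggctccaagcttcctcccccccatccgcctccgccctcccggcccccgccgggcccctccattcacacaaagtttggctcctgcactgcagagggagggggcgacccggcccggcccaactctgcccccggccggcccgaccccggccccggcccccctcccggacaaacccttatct

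RefSeq promoters were matched for 12448 of 16226 tested protein-coding genes. The ETS core stands 28 bases before the start of Rpl38 as counted from its first letter, the matches shown do not overlap each other, and Ndufb3, Scd4 and Kcnj10 have none of the 4 motifs. The ETS core was in 27.7% of 358 promoters of lower genes, 9.98% of 541 promoters of higher genes, 13.4% of all promoters, and 15.5% of those of genes with exons under 1000 bases. It was in 8 of 18 promoters of complexes II to IV, 16 of 64 of cytosolic ribosomal proteins, 6 of 32 of complex I, 4 of 14 of ATP synthase, 13 of 61 of mitochondrial ribosomal proteins and none of 22 of the lipid synthesis list. The NRF1 core was in 5 of 14 ATP synthase promoters, 2 of 18 of complexes II to IV, 1 of 32 of complex I, 6 of 61 of mitochondrial and none of 64 of cytosolic ribosomal proteins, and in 2.94% of all. It was in 6.15% of promoters of lower genes and 3.93% of those of genes with exons under 1000 bases. The cAMP response element was in 4.19% of promoters of lower genes and in 2.72% of all, and the sterol element in 125 of all 12448 promoters and none of the 22 of lipid synthesis genes. A match describes the letters of the window and not a site in use.

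Genes past the fold threshold in the lower direction were few and varied. The mitochondrial ribosomal RNAs mt-Rnr2 and mt-Rnr1 were the most abundant, with 159626, 142345 and 191766 normalized counts of mt-Rnr2 after RYGB and 207191 to 547693 with a median of 353524 after sham operation (log2 fold change -1.10, SE 0.27, adjusted p = 0.0391). For mt-Rnr1 the values were 101839, 94062 and 123173 and 133368 to 373618 with a median of 230839 (log2 fold change -1.12, SE 0.28, adjusted p = 0.0415). Libraries were made by poly-A selection, and the part of RNA capture in these levels was not tested. Mitochondrial ribosomal and transfer RNA took 0.881 to 1.20% of RYGB counts and 1.27 to 3.19% of sham counts (exact permutation test, p = 0.0357). The other named genes were RT1-M1-2, a class I histocompatibility gene (32.7, 37.1 and 30.3 against 65.8 to 151 with a median of 75.4), Ttc32 (72.8, 36.1 and 67.7 against 111 to 212 with a median of 132) and Fam72a (20.1, 21.1 and 26.3 against 37.8 to 91.6 with a median of 58.8). Their adjusted p-values were 0.0313, 0.0363 and 0.0373. Rn7sl1, the RNA of the signal recognition particle, and Rn5-8s ribosomal RNA fell as well (-1.30 and -1.15 on the log2 scale; adjusted p = 0.04 and 0.0479), and near-identical copies make their single values uncertain. When RYGB replicate 12, RYGB replicate 13 or sham replicate 11 was left out, 0 genes were downregulated.

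The study picked 15 receptor and enzyme genes on libraries that include these 9, so their direction here is not independent evidence. In batch B alone 3 of the 14 tested passed: Insr (above), Glra3 and Sdhd. Over all genes tested 3.91% were higher and 3.25% lower, and 14 genes are too few to set against these shares. Glra3, a glycine receptor subunit, had 52.8, 48.1 and 43.4 normalized counts after RYGB and 0 to 18.9 with a median of 3.36 after sham operation, with sham replicate 7 the highest of the sham group (log2 fold change 3.11, SE 0.75, adjusted p = 0.0373). Sdhd, a subunit of succinate dehydrogenase, had 3479, 3660.3 and 3266 against 4186 to 5763 with a median of 5191 (log2 fold change -0.55, SE 0.12, adjusted p = 0.0251), while Sdhb (-0.21, adjusted p = 0.202) and Sdhc (-0.30, adjusted p = 0.0731) did not pass. Glra1 had 457, 569 and 339 against 5.81 to 213 with a median of 148 normalized counts and an adjusted p of 0.135, which was 0.0186 without sham replicates 6 and 10, where Glra1 stood at 5.81 and 40.1. Glra4 (-0.41, adjusted p = 0.519) did not pass and had the sign opposite to the study's report. Of the serotonin receptors, Htr5a did not overlap between the groups (151, 161 and 150.5 against 50.3 to 138 with a median of 78.2, adjusted p = 0.105), and Htr1b and Htr2a overlapped (adjusted p = 0.373 and 0.128). Prlr, the prolactin receptor, had 31.7, 35.1 and 17.2 against 0 to 41.3 with a median of 11.7 (adjusted p = 0.649). Npy4r had at most 13.1 in the RYGB and 10.6 in the sham libraries in normalized counts and was too low to be tested.

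Lepr had 90.8, 167 and 88.9 normalized counts in RYGB replicates 12, 13 and 14 and 23.5 to 107 with a median of 53.3 in the sham libraries, so sham replicate 11, the maximum, lay above RYGB replicates 12 and 14 (log2 fold change 1.04, SE 0.42, adjusted p = 0.158). Its log2 fold change was 1.70 in batch A and -0.36 against saline-treated animals of batch B. Mc4r pointed downward, with 102, 46.1 and 90.9 normalized counts against 142 to 399.6 with a median of 176 (log2 fold change -1.40, SE 0.39, adjusted p = 0.0591). Its adjusted p was 0.0401 without sham replicates 6 and 10. This sign is opposite to the study's report, which gives higher Mc4r after RYGB. Mc3r had 152, 155 and 169.7 against 0 to 153 with a median of 69.1 (adjusted p = 0.426), with 0 in sham replicate 6 and 4.15 in sham replicate 10.

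Feeding peptides and their receptors varied widely among the sham animals. Of 16 arcuate peptides and sensors Insr alone passed, and of 47 receptors of feeding hormones none did, although 35 had a positive log2 fold change (median 0.43). Agrp had 148, 160.4 and 285 normalized counts after RYGB and 6.57 to 143 with a median of 38.7 after sham operation (log2 fold change 1.99, SE 0.76, adjusted p = 0.142). Npy, Pomc and Cartpt were chosen for mention after their values were seen. Npy had 304, 379 and 584 normalized counts in the RYGB libraries, from lowest to highest, and 255 to 2018 with a median of 520.4 in the sham libraries (log2 fold change -0.92, adjusted p = 0.406). Pomc (levels above) had an adjusted p of 0.37, and Cartpt had 4099.6, 4179 and 6185 against 506 to 5725 with a median of 3318 (adjusted p = 0.639). The groups overlapped for all 3, whereas every RYGB value of Agrp lay above the highest sham value. Among receptors, Tacr3, which binds neurokinin B, had 217, 368 and 197 against 27.6 to 143 with a median of 72.8 (adjusted p = 0.0556), and Glp1r had 175, 120.3 and 230.3 against 13.8 to 140.5 with a median of 61.8 (adjusted p = 0.115).

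Several of the largest fold changes were in genes of particular regions, with uneven values among the RYGB libraries. Slc6a3, the dopamine transporter, had 766, 2490.0 and 24.2 normalized counts in RYGB replicates 12, 13 and 14 and 0 to 18.9 with a median of 3.96 in the sham libraries (log2 fold change 7.30, SE 1.15, adjusted p = 0.0141), the 3 RYGB libraries lying far apart. Lmx1a (182, 383 and 48.5 against 5.81 to 34.2 with a median of 16.8) and Foxa1 (28.5, 55.2 and 12.1 against 0 to 1.31 with a median of 0), transcription factors of midbrain dopamine and posterior hypothalamic neurons, had the same order of RYGB libraries. Th, the first enzyme of dopamine synthesis, had 2831, 5262 and 957 against 18.9 to 890.3 with a median of 469 (adjusted p = 0.0992), and Hdc, which makes histamine in the posterior hypothalamus, 1050.2, 2819 and 1442 against 11.6 to 609 with a median of 117 (adjusted p = 0.053). The pituitary hormone subunits Cga (233, 1786 and 9436 against 0 to 90.7 with a median of 26.8; adjusted p = 0.0151) and Tshb (35.9, 747 and 3478 against 0 to 53.9 with a median of 1.93; adjusted p = 0.0204) were highest in RYGB replicate 14. Nmu, a neuropeptide of the pituitary and brain, had the same order of RYGB libraries, with 36.9, 154 and 869.5 against 6.57 to 45.6 with a median of 16.3 (log2 fold change 4.14, SE 0.82, adjusted p = 0.0219). For Tshb and Nmu, RYGB replicate 12 lay within the sham range. Of 14 anterior pituitary markers, 6 could be tested and 2 passed, too few to set against the 3.91% of all genes tested that were higher.

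All 14 striatal markers had negative log2 fold changes (median -2.07) and none passed. Without sham replicates 6 and 10 their median was -0.33. The choroid plexus markers Kl (85.5, 162 and 100.0 against 12.4 to 29.6 with a median of 16.3; adjusted p = 0.00697) and Slc4a5 (adjusted p = 0.0379) passed, 2 of 13, while the list's summed counts were 1107 to 9290.0 in the RYGB libraries and 397 to 7110.0 in the sham libraries. Rasgrf2 passed in the cortical list (2.30, adjusted p = 0.0149), Synpo2 (1.96, adjusted p = 0.047) and Lef1 (1.02, adjusted p = 0.0422) among 9 thalamic and habenular markers, and Gpr17 among oligodendrocyte precursors (0.87, adjusted p = 0.0256). Over all genes tested 3.91% were higher, and these marker lists are too short to set against that share. Lef1 turned direction in other fits, at -0.15 with both batches and -0.12 against saline, the thalamic list's median was -0.95 in batch A, and 0 of its members passed when any 1 of RYGB replicates 12 and 13 or sham replicates 8 to 11 was left out. Oligodendrocyte markers were all negative without passing (median -0.51), with summed counts of 482728 to 647780.0 in the RYGB libraries and 286089 to 1307810.0 in the sham libraries.

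Immediate early genes, which mark recent neuronal activity, had no member of 25 past the threshold and a median log2 fold change of -0.54. Fosb had 32.7, 34.1 and 36.4 normalized counts after RYGB and 49.6 to 249.9 with a median of 125 after sham operation, without overlap, at an adjusted p of 0.0555. Egr3 had 80.2, 90.3 and 59.6 against 119 to 1781 with a median of 274 (adjusted p = 0.0958), the highest values being in sham replicates 6 and 10. Collagens (42 tested), glucocorticoid response (19), thyroid axis (14), endoplasmic reticulum stress (22), endocannabinoid (10) and serotonin receptor (12) lists had no member past the threshold by edgeR.

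The other period, batch A, offers the same comparison in other animals, with 11 RYGB and 5 sham libraries. Per the labels, its libraries had shorter fragments than those of batch B. There edgeR called no gene at an adjusted p under 0.05 (0.00% of 20118 genes; smallest adjusted p 0.0637; 4161 genes at an unadjusted p under 0.05), while DESeq2 without shrinkage called 739 regulated genes. Of the 386 genes upregulated in batch B, 368 had a positive log2 fold change in batch A (95.3%), with a median of 1.44 in batch B and 0.75 in batch A. Of the 17 downregulated genes, 12 were lower in batch A (70.6%), with medians of -1.35 and -0.34. Without the fold threshold, 677 of the 753 higher genes were higher in batch A (89.9%), with medians of 1.02 and 0.47. Of the 627 lower genes, 591 were lower in batch A (94.3%), with medians of -0.57 and -0.25. All these genes were selected on their batch B values, so the medians of batch B and batch A cannot be compared as sizes of effect. Among all 19086 genes tested in both, 67.3% had the same sign. Kcnj10 had log2 fold changes of 1.85 in batch B and 0.97 in batch A, Epas1 1.40 and 1.01, and Lrrc58 2.12 and 1.73. Slc6a3 had 7.30 and 8.88 and Cga 6.96 and 0.60. The median of the cytosolic ribosomal list was -0.60 in batch B and -0.14 in batch A. A direct test of the difference in effect between the batches called none of 21195 genes in edgeR (0.00%; smallest adjusted p 0.224; 1789 at an unadjusted p under 0.05). DESeq2 called 114 at an adjusted p under 0.05, of which 14 higher and 83 lower also passed the fold threshold.

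**Figure D5:**
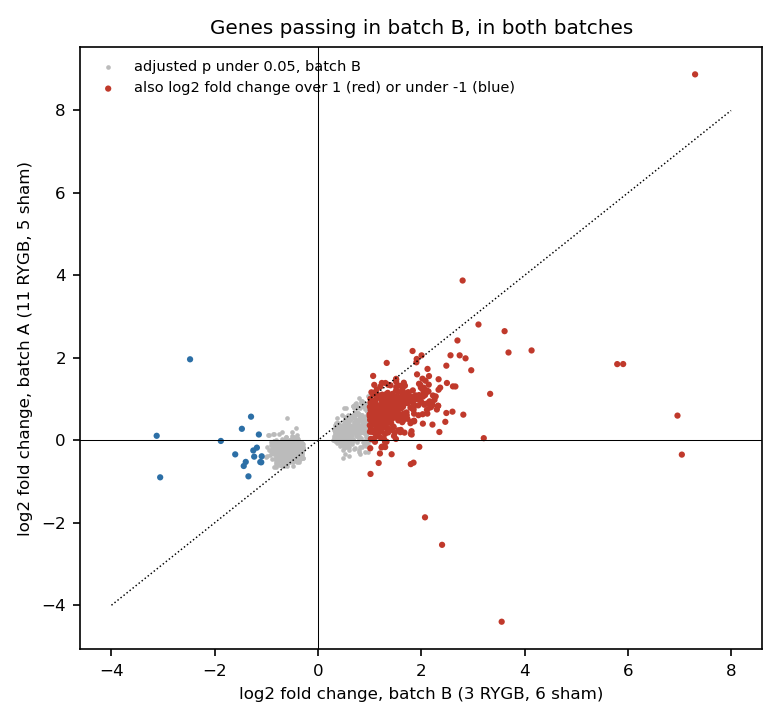
Log2 fold change of RYGB vs. sham in batch B (x axis) and in batch A (y axis) for genes past the adjusted p threshold in batch B, 1 point a gene; grey points are under the fold threshold, red ones upregulated, blue ones downregulated, and the dotted line marks equal values. Most points lie in the quadrants of equal sign and nearer to 0 in batch A, on whose values the genes were not selected.

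Saline-treated animals of batch B, 5 obese controls given isotonic saline under the skin and by osmotic minipump, give a second reference for the same RYGB libraries. With them as controls 37 genes were upregulated and 0 downregulated in edgeR (3379 at an unadjusted p under 0.05). Against saline, Kcnj10 had a log2 fold change of 1.20, Epas1 0.83, Igfbp5 1.59, Slc6a11 1.84 and Insr 0.72. By edgeR these genes did not pass against saline, with adjusted p-values, in the same order, of 0.0545, 0.0866, 0.0577, 0.081 and 0.179. The cytosolic ribosomal list had a median of -0.31 and complex I of -0.29. Pcdh1 and Rasa3, at 1.55 and 1.03 against sham, had 0.18 and 0.20 against saline. Between sham and saline animals of batch B, 0 genes passed by edgeR, with 2018 of 18578 at an unadjusted p under 0.05. The comparisons share libraries and are shown side by side.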

How the data were processed

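Poly-A selected, stranded RNA of whole rat hypothalamus was sequenced as single reads of 75 nt. Per the submitters' processing notes and the study's methods, reads were demultiplexed with bcl2fastq 2.20.0.422, trimmed with cutadapt (1.16 in the notes, with later versions also named in the methods), aligned to Rnor_6.0 with STAR 2.7.2b and RefSeq annotation release 106, and assigned to genes with featureCounts 1.6.4, reads with several positions or genes being split. The deposited table therefore holds estimated counts that the authors did not normalize (38513 genes in 65 libraries), and 30.257% of its nonzero values were not whole to within 1e-06. They were rounded, which changed no library total by more than 0.00104%. The table has 0 further per-sample columns, and 148 symbols stand for more than 1 gene.

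The 9 libraries were fitted with the edgeR (4.0.16) quasi-likelihood test after TMM scaling, for genes kept by filterByExpr (minimum count 10, minimum total 15), with Benjamini-Hochberg adjustment over all genes tested. A gene was higher or lower at an adjusted p under 0.05, and upregulated or downregulated if its log2 fold change also exceeded 1. Printed levels are counts divided by DESeq2 (1.42.0) size factors of all 65 libraries, and SE is the log2 fold change over the root of F. Labels name the libraries as replicates without naming animals, so p-values measure the spread between these libraries. Named genes were the 12 with the smallest p in each direction without overlap, the 6 most abundant regulated in each direction, those the study names for this comparison, and up to 4 of each list by p. Members and lists were chosen with earlier results of these data known. On simulated counts for 18877 genes, changes of 3 and 1.5 on the log2 scale were recovered in 98% and 88% of genes, with 10 false calls. The changed genes were drawn from those with higher counts. No trend over exon length and no difference in tissue between libraries was simulated, so these rates do not describe the calls in the real libraries. Alternatives covered scaling, filters, DESeq2, other libraries in the fit and each library left out, and 3 were chosen after seeing the data: leaving out sham replicates 6 and 10, thinning to equal totals, and an offset over exon length. Library measures were compared by exact permutation. At totals of 20040821 to 26975216 counts, genes under about 10 counts were mostly not testable. Some genes that meet the rule are not reported here.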

Additional observations from a re-analysis of the deposited data

Results flagged for a closer look

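In 126 genes and library measures screened, 19 had 1 of the 6 sham libraries whose gap to its neighbor exceeded 0.625 of the group's range, and chance flags about 1 in 20 such groups. The 3 RYGB libraries are too few for this test. Sham replicate 7 stood apart in 8 genes. It was highest for Spock2 with 7990.3 normalized counts (4033 to 4995 in the other sham libraries), Pnmal2 with 9132 (3633 to 4724), Abat with 4191 (2360 to 2780) and Glra3 with 18.9 (0 to 5.26). It was also highest for Chrnb2 with 459 (216 to 255), Stat5b with 568 (249.9 to 307) and Tnr with 333 (133 to 205), and lowest for Rpl38 with 2915 (4036 to 4464). In each of these 8 genes it was the sham library nearest to the RYGB libraries. Its summed pituitary marker count of 554 was the highest of the sham group (213 to 330.3 in the others).

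Sham replicate 6 was highest for RT1-M1-2 with 151 normalized counts, Ttc32 with 212 and Mc4r with 399.6. Sham replicate 9 was highest for Tshb with 53.9, and sham replicate 10 for Nmu with 45.6. Sham replicate 10 also had the lowest share of pseudogene counts, 2.11%. Sham replicate 11 was highest for Kl with 29.6, for the summed meningeal markers with 39051, for the summed pericyte and smooth muscle markers with 15601 and for the summed thalamic and habenular markers with 4314.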

How the results depend on the processing

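No paired analysis was possible because RYGB replicates 12 to 14 and sham replicates 6 to 11 share no numbers. Against 403 regulated genes (386 upregulated, 17 downregulated), the total was 701 in DESeq2 without shrinkage (143 downregulated), 607 with all 28 batch B libraries in the fit (57 downregulated), 268 with the exon length offset (3 downregulated), 37 with saline as control (37 upregulated, 0 downregulated) and 1380 by adjusted p alone. Downregulated genes numbered 50 with the DESeq2 beta prior, 82 with both batches and a batch term, 6 without a filter and 11 under the stricter filter. The 753 higher genes became 1264 (DESeq2), 1275 (beta prior), 1290 (all of batch B), 1390 (both batches), 52 (saline) and 360 (offset), and the 627 lower genes 1280, 1237, 1141, 1252, 1 and 65, or 398 without a filter.

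Leaving out 1 library gave 1 to 647 regulated genes, 1 to 580 upregulated, 0 to 67 downregulated, 1 to 1262 higher and 0 to 1130 lower. Differences in library measures (RYGB minus sham) then ranged from -1.23 to -0.846 percentage points for mitochondrial rRNA and tRNA, -2.37 to -1.55 for the 10 most abundant genes, -0.0542 to -0.0330 for lncRNA, and 173 to 222 bases for mean exon length, where the exact test with fewer libraries cannot reach as small a p. Batch A had 739 regulated genes by DESeq2 and 0 by edgeR, and the test of the difference between batches called 114 and 0 at an adjusted p alone. Log2 fold changes turned direction for Glra4 (0.22 with both batches), Sdhb (0.0061 with the offset), Lepr (-0.36 against saline), Npy (0.010 without sham replicates 6 and 10) and Lef1 (-0.15 with both batches, -0.12 against saline). The cause of these changes was not tested. Of the 76 named genes past the threshold, 76 held with DESeq2, 71 without sham replicates 6 and 10 and 74 of 75 when thinned. Without a filter 70 held, with the offset 41, with both batches and a batch term 47 and with saline as control 4. In the fit of both batches and in that against saline, 1 gene each turned direction. Values of genes near 0 counts in a group are limited by depth.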
